A study of Mus musculus with 12 samples.

Results

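The genes examined were 10 interferon-inducible GTPases, of 49585 genes counted, in hematopoietic stem cells (HSCs) of WT and Pon2-/- mice. They comprised the very large inducible GTPase Gvin1 and its copies Gm1966 and Gm4070, the immunity-related GTPases (IRGs) Iigp1, Irgm1, Irgm2 and Igtp, and the guanylate-binding proteins (GBPs) Gbp2, Gbp3 and Gbp7. They were selected on their names and on the counts of Gvin1 and Gm1966 in these same samples, after a loss of both in Pon2-/- HSCs had been seen, to ask whether other GTPases shared it. The genotype difference of these genes is therefore given as a description, with no p. All 10 were among the 11848 genes that passed the filter on low counts, and Gvin1 passed it through its WT counts alone.

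Interferons signal through JAK kinases and STAT factors to switch on genes of intracellular defence. Among the most strongly induced are large GTPases that bind membranes: IRGs and GBPs gather on the vacuoles of intracellular pathogens, and the Irgm subgroup holds the effector IRGs inactive on the cell's own membranes. Irgm1 is also known to be needed for the normal renewal of HSCs under interferon. The function of the very large inducible GTPases is little known.

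RNA was sequenced from 6 WT and 6 Pon2-/- mice of strain C57BL/6J that were 10 to 14 weeks old. Pon2-/- mice carry a gene trap vector with β-geo, flanked by loxP sites, in intron 2 of Pon2, which encodes the antioxidant enzyme paraoxonase 2. The labels name Charles River as the origin of the WT mice and give none for the Pon2-/- mice, so that genotype and origin of the mice cannot be told apart. Lin-, Sca1+, ckit+, CD135- and CD150+ bone marrow cells were sorted as 10 cells per well in 8 wells per mouse. The labels call these cells LT-HSCs, and the methods of the study describe them as a mixture of LT-HSC and MPP2. The counts were given per mouse, so that n is the number of mice and p measures the spread between them. In such bulk samples, fewer expressing cells and less RNA per cell cannot be told apart.

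Total counts on genes were 12967791 to 24228280 in WT and 14671353 to 23122382 in Pon2-/- samples. Expression is given as counts per 1000000 counts (CPM) of the scaled library. All 10 genes of an HSC marker list were detected, with a summed level of 2120 to 2690 CPM for WT and 2170 to 2630 CPM in Pon2-/- HSCs, and none passed the test. Macrophage and monocyte markers summed to 624 to 1700 and 459 to 2440 CPM (9 of 10 detected, Marco at 0). B lineage markers summed to 25.3 to 345 and 58.3 to 861 CPM (10 of 10 detected). T and NK lineage markers summed to 103 to 263 and 55.5 to 261 CPM (6 of 10 detected, Cd3e, Trac, Cd8a and Cd8b1 at 0). Endothelial markers summed to 493 to 671 and 466 to 807 CPM (7 of 10 detected, Kdr, Plvap and Cdh5 at 0). The ranges of the genotypes overlapped for every list. Pon2 itself had 55.8 to 200 CPM (median 104) in WT and 1.15 to 32.8 CPM (median 29.4) in Pon2-/- HSCs. The log2 fold change of Pon2 was -2.13 (SE 0.57, adjusted p = 0.586 with edgeR and 0.0106 with DESeq2), and no Pon2-/- sample reached the lowest WT sample.

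The sequences of Gvin1 and Gm4070 bear on how their reads could be assigned. Gvin1 (ENSMUSG00000045868.12, chr7:106156556-106215326) and Gm4070 (ENSMUSG00000078606.8, chr7:105895139-105953967) are protein-coding genes on the minus strand in GENCODE M21 (GRCm38). The transcripts Gvin1-201 and Gm4070-201 have 8795 bases each and differ at 3 of them, all in the coding sequence. The differences, counted from 1 at the 5′ end of the transcript and with the Gvin1 base first, are G1895T, G4994A and C7165T. The windows of 41 bases around them are shown 5′ to 3′ as transcribed, with the differing base in capitals. In Gvin1 they lie at chr7:106163436-106163476, chr7:106160337-106160377 and chr7:106158166-106158206, and in Gm4070 at chr7:105902019-105902059, chr7:105898920-105898960 and chr7:105896749-105896789.
Gvin1 G1895T: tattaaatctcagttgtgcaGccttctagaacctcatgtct
Gm4070 G1895T: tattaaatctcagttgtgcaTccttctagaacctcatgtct
Gvin1 G4994A: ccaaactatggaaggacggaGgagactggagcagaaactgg
Gm4070 G4994A: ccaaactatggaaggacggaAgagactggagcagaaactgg
Gvin1 C7165T: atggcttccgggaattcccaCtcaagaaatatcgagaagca
Gm4070 C7165T: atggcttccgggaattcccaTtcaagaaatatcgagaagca

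Among all stretches of 75 bases in transcripts of Gvin1, only 1.67% occur in no transcript of another gene. All 150 of them cover G1895T or C7165T. The share was 3.28% for Gm4070 and 94.4% for Gm1966, and it was 88.7% to 100% for the 7 IRGs and GBPs. Among the listed genes, Gvin1 and Gm4070 were therefore those with the least sequence of their own, and the stretch length is a choice, since the read length is not given in the sources used here. The counts of Gvin1 and Gm4070 are uncertain for this reason. Gm1966 (ENSMUSG00000073902.5, chr7:106596743-106604035) is annotated as an unprocessed pseudogene without introns and is 92.93% identical to Gvin1 over 7284 aligned bases.

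Gvin1 was counted in every WT sample and in no Pon2-/- sample. Its lowest, median and highest expression in WT HSCs was 0.852, 2.67 and 6.54 CPM. The 6 WT samples held 11 to 91 counts each and 320 in all, whereas the 6 Pon2-/- samples held 0. If the Pon2-/- samples together are allowed up to 3 counts, the uniquely mapped counts of Gvin1 were at least 107-fold lower. This limit covers counting error only, because PCR copies are not independent molecules. It is a limit on unique counts and not on the expression of the gene, since the 150 stretches that Gvin1 has for itself all cover G1895T or C7165T. Whether the Pon2-/- mice carry the same bases at these sites was not tested. The fitted log2 fold change of -8.82 (SE 0.92) depends on the prior count and is no bound.

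Gm1966 was expressed in both genotypes, at levels that did not overlap. WT HSCs had 20.3 to 57.4 CPM (median 40.3) and Pon2-/- HSCs had 0.94 to 3.22 CPM (median 1.96). In counts, the samples held 335 to 1051 in WT and 17 to 58 in Pon2-/- HSCs. The mean fell from 39.9 ± 16 to 1.98 ± 0.878 CPM (mean ± SD, 6 mice each), a log2 fold change of -4.33 (SE 0.61) or 20.1-fold.

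Gm4070, the copy nearest in sequence to Gvin1, did not share this loss. Its expression was 1.41 to 6.83 CPM (median 4.03) in WT and 1.03 to 8.7 CPM (median 3.55) in Pon2-/- HSCs. The ranges overlapped almost entirely, and the log2 fold change was -0.01 (SE 0.7). Added together, Gvin1 and Gm4070 had 6.97 ± 3.32 CPM for WT and 3.86 ± 2.77 CPM for Pon2-/- HSCs (mean ± SD, 6 mice each). The ranges of 4.76 to 13.4 and 1.03 to 8.7 CPM overlapped. Only uniquely mapped reads were counted, so that a sum does not recover reads that fit both copies equally. The sum of Gvin1, Gm1966 and Gm4070 was 46.8 ± 18.4 and 5.84 ± 3.42 CPM, with a log2 fold change of -3.0 (SE 0.55). Gm1966 held most of this sum in WT HSCs, and Gm4070 held most of it in Pon2-/- HSCs.

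**Figure D1:**
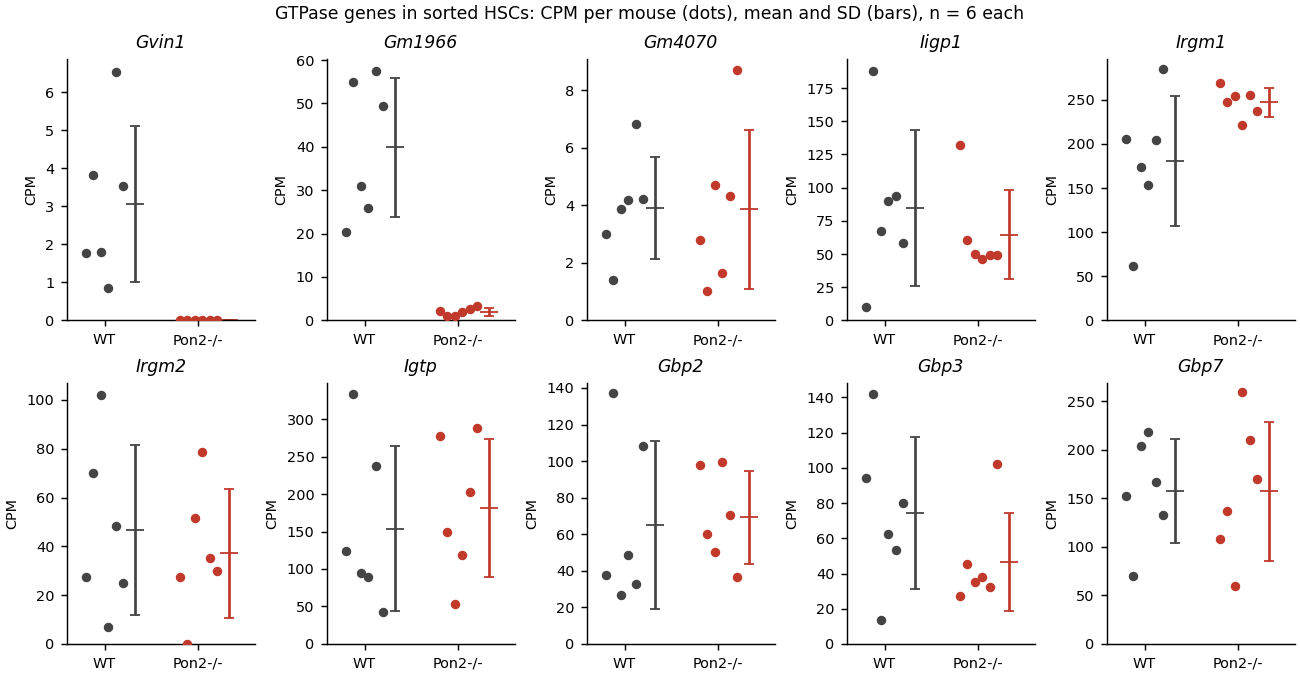
Expression of the 10 listed GTPase genes in CPM (y axes from 0, with a scale of their own for each gene) by genotype (x axes), with 1 dot per mouse in replicate order and bars for mean and SD (n = 6 each). Gvin1 lies at 0 in all Pon2-/- samples and Gm1966 between 0.94 and 3.22 CPM, below every WT sample, while the genotypes overlap for the other 8 genes.

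None of the 4 IRGs showed separate genotypes. Iigp1 (ENSMUSG00000054072.11), on chromosome 18, is an effector IRG that is loaded onto vacuoles. It had 9.95 to 188 CPM (median 78.7) in WT and 45.9 to 132 CPM (median 49.3) in Pon2-/- HSCs. Both the lowest and the highest of the 12 samples were WT. The log2 fold change was -0.39 (SE 0.51).

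Irgm1 (ENSMUSG00000046879.7, chr11:48861968-48871683), a regulator of the Irgm subgroup, was expressed at 61.4 to 285 CPM (median 190) in WT and 222 to 269 CPM (median 251) in Pon2-/- HSCs. Only WT replicate 6 lay above the Pon2-/- samples, and the other 5 WT samples lay below all of them. The mean was 181 ± 73.6 CPM for WT and 247 ± 16.2 CPM for Pon2-/- HSCs (mean ± SD, 6 mice each), with a log2 fold change of 0.46 (SE 0.26). The coefficient of variation (SD over mean) was 40.7% in WT and 6.55% in Pon2-/- HSCs, the lowest of the 10 genes in the latter.

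Igtp (ENSMUSG00000078853.8, chr11:58199556-58207591), also known as Irgm3, had 42.5 to 334 CPM (median 109) in WT and 53.6 to 288 CPM (median 176) in Pon2-/- HSCs. The samples of both genotypes were spread over the same range, and the log2 fold change was 0.24 (SE 0.48). Irgm2 (ENSMUSG00000069874.7, chr11:58199618-58222782) had 6.89 to 102 CPM (median 38) in WT and 0.0428 to 78.5 CPM (median 32.6) in Pon2-/- HSCs. Its log2 fold change was -0.32 (SE 0.91), the second largest SE of the 10 genes after that of Gvin1. In Pon2-/- replicate 2, Irgm2 had 1 count, while the other Pon2-/- samples had 27.3 CPM or more. The gene models of Igtp and Irgm2 overlap on the same strand, and reads in exons that both share are ambiguous, although 92.2% and 95.2% of their stretches of 75 bases occur in no other gene's transcripts.

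The 3 GBPs lie side by side on chromosome 3. Gbp2 (ENSMUSG00000028270.12, chr3:142620602-142638008), which binds pathogen vacuoles, had 27 to 137 CPM (median 43) in WT and 36.8 to 99.7 CPM (median 65.4) in Pon2-/- HSCs. Gbp3 (ENSMUSG00000028268.14, chr3:142560026-142573209) had 13.8 to 142 CPM (median 71.1) and 27.1 to 102 CPM (median 36.6). Gbp7 (ENSMUSG00000040253.15, chr3:142530342-142550149) had 70.4 to 218 CPM (median 159) and 60.1 to 259 CPM (median 153). The genotypes overlapped for all 3 genes. The log2 fold changes were 0.09 (SE 0.43) for Gbp2, -0.67 (SE 0.48) for Gbp3 and 0.0 (SE 0.33) for Gbp7. Of the GBPs, Gbp3 had the largest difference, at 74.3 ± 43.1 CPM for WT and 46.7 ± 27.7 CPM for Pon2-/- HSCs (mean ± SD, 6 mice each), which is within the spread of the samples.

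By count, 2 of the 10 genes passed both thresholds of the study (FDR below 0.05 and a fold change above 2) with edgeR and with DESeq2, and both were lower. The background was 0.203% of all tested genes with edgeR and 1.74% with DESeq2. Likewise, 2 of 10 did not overlap between the genotypes, compared with 0.625% of all tested genes. Since the list was made around these 2 genes, nothing is read from their share. The 7 IRGs and GBPs had log2 fold changes from -0.67 to 0.46 with a median of 0.0, 4 of them positive and 3 negative, and the median over all tested genes was -0.01. With SEs of 0.26 to 0.91, single genes among them are not shown to be unchanged.

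Levels can be compared between genes only per length. Per kilobase of exons, Igtp was the highest in WT HSCs with 76.1 ± 54.4 CPM per kb (SD, n = 6), above 93% of the tested genes. It was followed by Irgm1 with 31.2 ± 12.7, Gbp7 with 28 ± 9.5, Gbp2 with 25.9 ± 18.3, Gbp3 with 22.8 ± 13.2, Iigp1 with 14.5 ± 10.1 and Irgm2 with 12.6 ± 9.39 CPM per kb. Each of these overlapped its neighbour in the order. Gm1966 followed with 5.47 ± 2.2 CPM per kb and overlapped Irgm2. Gm4070 with 0.422 ± 0.192 and Gvin1 with 0.339 ± 0.228 CPM per kb were the lowest, overlapped each other and did not overlap Gm1966. The place of Gm4070 and Gvin1 in this order is not shown, because only uniquely mapped reads were counted. Of their stretches of 75 bases, 3.28% and 1.67% occur in no transcript of another gene. Division by all exon bases can therefore understate the levels of both. In Pon2-/- HSCs, the order of the 7 IRGs and GBPs was the same, with 89.9 ± 45.5 CPM per kb for Igtp, whereas Gm1966 fell below Gm4070, at 0.271 ± 0.12 and 0.416 ± 0.299 CPM per kb.

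To place the losses among the relatives of Gvin1, 8 copies of the very large GTPase on chromosome 7 were compared. Their order along the chromosome is 9130208D14Rik, Gm4070, Gm8979, Gvin1, Gm8989, Gm4759, Gm8995 and Gm1966, and all lie on the minus strand. Aligned transcripts were 80.35% to 99.97% identical. The copy 9130208D14Rik was recognised after its values had been seen. Gm17757, a further copy on the family list below, was not found by name, so that the set of copies may be incomplete.

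The copies with the most counts were Gm8995 and Gm4759, both annotated as pseudogenes, and neither passed the test. Copies with little sequence of their own, such as Gvin1, may be undercounted beside them. Gm8995 had 349 ± 70.5 CPM for WT and 362 ± 148 CPM for Pon2-/- HSCs (mean ± SD, 6 mice each), a log2 fold change of 0.06 (SE 0.23). Gm4759 had 223 ± 77.6 and 139 ± 77.9 CPM, a log2 fold change of -0.68 (SE 0.38, adjusted p = 1.0 with edgeR). Of Gm4759, 6545 of 6548 stretches of 75 bases were its own, and of Gm8995 92.9%, so that these values rest on separable reads.

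In the opposite direction to Gvin1, 2 copies had counts almost only in Pon2-/- HSCs. 9130208D14Rik (ENSMUSG00000086513.3, chr7:105824223-105831515), an unprocessed pseudogene, had 9 to 106 counts in each Pon2-/- sample and no more than 1 in any WT sample. The 345 counts against 2 give a ratio of 172 (95% counting interval 47.4 to 1430), and the log2 fold change was 7.03 (SE 1.01, adjusted p = 0.00551 with edgeR). 9130208D14Rik passed the filter on low counts through its Pon2-/- counts alone, so that its p is given as a description. Its call was lost with no filter beyond 1 read, at a log2 fold change of 7.07 (adjusted p = 0.281 with edgeR). Gm8979 (chr7:106076751-106084046) had 75 counts against 1, a ratio of 75 (95% counting interval 13.1 to 3000), and each Pon2-/- sample lay above each WT sample. It did not pass the filter on low counts and was called by DESeq2 alone (adjusted p = 0.0144). Gm8989 had 297 and 336 counts, in 3 WT and 4 Pon2-/- samples. Stretches of 75 bases found in no other gene's transcripts made up 61.6% of 9130208D14Rik, 21.8% of Gm8979 and 29.7% of Gm8989, and Gm8979 and Gm8989 are 99.24% identical, so that the counts of these copies are uncertain.

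Summed over these 8 copies, the expression was 623 ± 107 CPM for WT and 514 ± 195 CPM for Pon2-/- HSCs (mean ± SD, 6 mice each). The samples ranged from 497 to 795 and from 294 to 795 CPM, and the log2 fold change of the sum was -0.28 (SE 0.23). Gm8995 and Gm4759 made up most of it. Without them, the sum of the other 6 copies was 50.5 ± 20.1 CPM (25.5 to 81.9) in WT and 12.5 ± 4.12 CPM (7.35 to 19.4) in Pon2-/- HSCs, a ratio of 0.248 with no overlap of the samples. Gm1966, chosen for its loss in these data, held most of this smaller sum in WT HSCs, at a mean of 39.9 CPM. It had 1.98 CPM in Pon2-/- HSCs. The fall of the smaller sum therefore largely restates that of Gm1966 and is no result about 6 copies. These sums were chosen after the data had been seen.

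**Figure D2:**
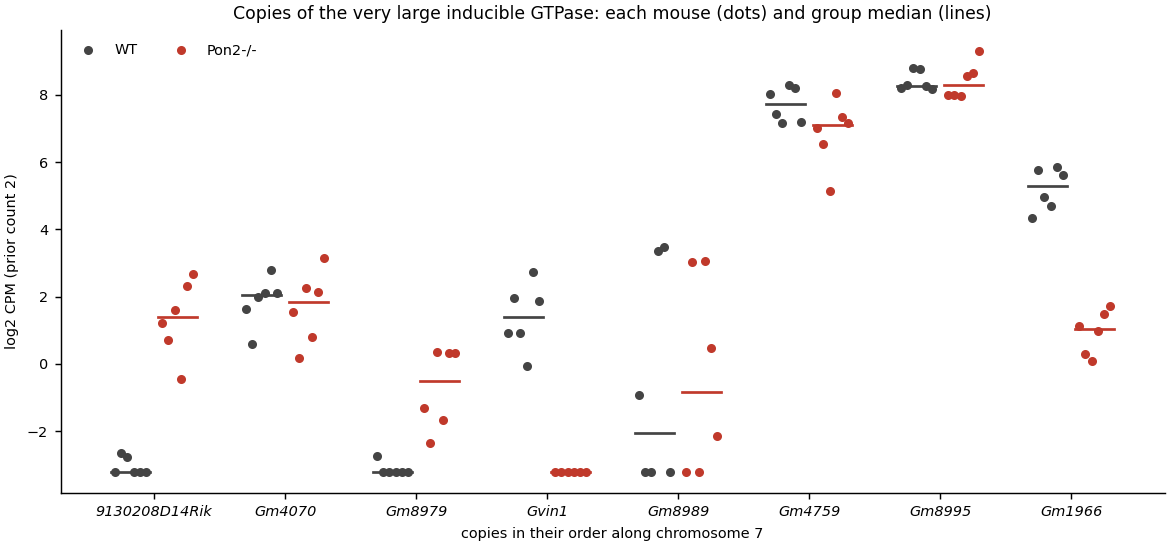
Expression of the 8 copies of the very large GTPase as log2 CPM with a prior count of 2 (y axis), in their order along chromosome 7 (x axis), with 1 dot per mouse and a line at the median of each genotype. Gvin1 and Gm1966 are lower and 9130208D14Rik and Gm8979 higher in every Pon2-/- sample, while Gm4070, Gm8989, Gm4759 and Gm8995 overlap, and dots at the bottom are samples without counts.

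Genes around the members were then tested within 2 Mb on either side of each locus, since position played no part in the list. Of 128 neighbours tested, 2 passed both thresholds with edgeR and 5 passed them with DESeq2, beside 0.203% and 1.74% of all tested genes. Both edgeR calls were on chromosome 7, in the window of Gvin1, where 25 neighbours were tested and 4 had an unadjusted p below 0.05. They were 9130208D14Rik, itself a copy of the very large GTPase and described above, and Trim12a (chr7:104299894-104315466), a member of the TRIM family of antiviral factors. Trim12a had 40.3 to 92 CPM for WT and 0 to 0.119 CPM in Pon2-/- HSCs, with a log2 fold change of -9.9 (SE 0.67, adjusted p = 2.35e-06 with edgeR). Trim12a passed the filter on low counts through its WT counts alone, so that its p, like that of 9130208D14Rik, is given as a description.

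The genotypes also did not overlap for the neighbours Trim5 and Trim34b, which lie beside Trim12a. Trim5 had 8.93 to 23.2 CPM for WT and 0.459 to 1.65 CPM in Pon2-/- HSCs (log2 fold change -3.87, SE 0.77, adjusted p = 0.0813 with edgeR). Trim34b had 2 counts over the WT samples and 1013 over the Pon2-/- samples, a ratio of 506 (95% counting interval 140 to 4190, adjusted p = 0.0528 with edgeR). Trim34b passed the filter on low counts through its Pon2-/- counts alone, so that its p is given as a description. Both Trim5 and Trim34b were called by DESeq2. The other tested genes of the window showed no call, among them Trim30a, which had 79.9 ± 35.8 and 81.1 ± 32.9 CPM (mean ± SD, 6 mice each), and Mrpl17 with 234 ± 44.5 and 208 ± 43.5 CPM.

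At the other loci there were 0 edgeR calls among 27 neighbours of Irgm1, 43 of Igtp and Irgm2, 24 of Iigp1 and 9 of the GBPs. At an unadjusted p below 0.05 there were 1, 5, 0 and 0, beside 3.13% of all tested genes, and among these tested neighbours DESeq2 called only 2610507I01Rik, near Igtp and Irgm2. Of the 24 genes called over the whole genome, 6 were on chromosome 7, and 4 of these were in the window of the Gvin1 cluster, Gvin1 and Gm1966 included. Gvin1 and Gm1966 were chosen for their loss in these data, and 9130208D14Rik is a further copy. The share of tested genes on chromosome 7 was not computed, and nothing is read from these counts.

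**Figure D3:**
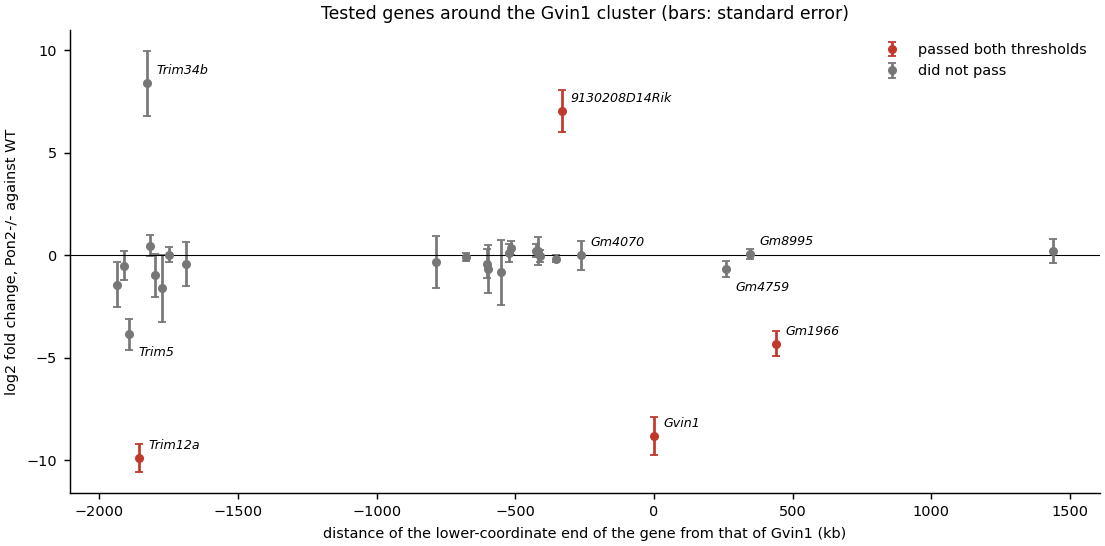
Log2 fold change of each tested gene around the Gvin1 cluster (y axis, with standard errors) against its distance in kb from Gvin1 on chromosome 7 (x axis), with genes that passed both thresholds in red. Large differences in both directions stand side by side at Trim5, Trim12a and Trim34b (-3.87, -9.9 and 8.38) and among the copies (9130208D14Rik at 7.03, Gvin1 at -8.82).

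The other GTPases of the same families were examined from a list of 29, of which 28 were found by name and 19 passed the filter on low counts. With edgeR, 0 of the 19 passed both thresholds and 1 had an unadjusted p below 0.05, compared with 0.203% and 3.13% of all tested genes. DESeq2 called Gm8979 alone. The copy 9130208D14Rik was not on this list and was counted among the neighbours. Its log2 fold change was 7.03, and edgeR called it. Of the 19 log2 fold changes, 10 were positive and 9 negative, with a median of 0.01.

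Among the IRGs of this list, the abundant Ifi47 and Tgtp2 had the smallest errors. Ifi47 had 240 ± 76.2 CPM for WT and 244 ± 40.4 CPM for Pon2-/- HSCs (mean ± SD, 6 mice each), a log2 fold change of 0.03 (SE 0.2). Tgtp2 had 222 ± 40.4 and 223 ± 51.2 CPM, a log2 fold change of 0.01 (SE 0.17). For these effector IRGs, the estimates stayed close to 0 with errors far below a 2-fold change. Tgtp1 (0.13, SE 0.28), Gm4951 (0.35, SE 0.6) and F830016B08Rik (0.09, SE 0.71) also had log2 fold changes near 0. The smallest p belonged to Gm12250, annotated as a processed pseudogene, with 38.2 ± 17.5 and 71.9 ± 24.9 CPM, a log2 fold change of 0.92 (SE 0.34, unadjusted p = 0.0183, adjusted p = 1.0 with edgeR).

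Less abundant IRGs varied more from mouse to mouse. Gm12185 had a log2 fold change of -1.57 (SE 1.15), Gm4841 of -1.86 (SE 1.05), Irgq of 1.1 (SE 1.35) and 9930111J21Rik2 of 1.0 (SE 1.7). None of these differences exceeded the spread of the samples. Several of these genes overlap others in the annotation, among them Gm12185 and Tgtp1, which limits how their reads could be assigned.

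Among the other GBPs, Gbp4 (log2 fold change -0.98, SE 1.05), Gbp8 (-1.05, SE 1.27) and Gbp9 (-0.93, SE 1.11) were at lower means in Pon2-/- HSCs without passing the test, and their gene models overlap each other. The mean of Gbp9 hides an uneven spread, with a median of 40 CPM for WT mice and of 7.51 CPM for Pon2-/- mice. Pon2-/- replicate 6, at 111 CPM, lay above all WT samples (16.7 to 89.7 CPM). The other Pon2-/- samples, at 0.166 to 13.5 CPM, lay below all of them, a pattern that was not tested. Gbp5 (0.0, SE 1.16) and Gbp6 (-0.1, SE 1.11) had similar means in both genotypes. Mx1, an antiviral GTPase, had 319 counts in 2 WT samples and 782 counts in 5 Pon2-/- samples (log2 fold change 1.06, SE 1.95). Urgcp, a more distant relative of the very large GTPases, had 38.9 ± 25.2 and 32.7 ± 9.2 CPM (mean ± SD, 6 mice each), a log2 fold change of -0.25 (SE 0.48).

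**Figure D4:**
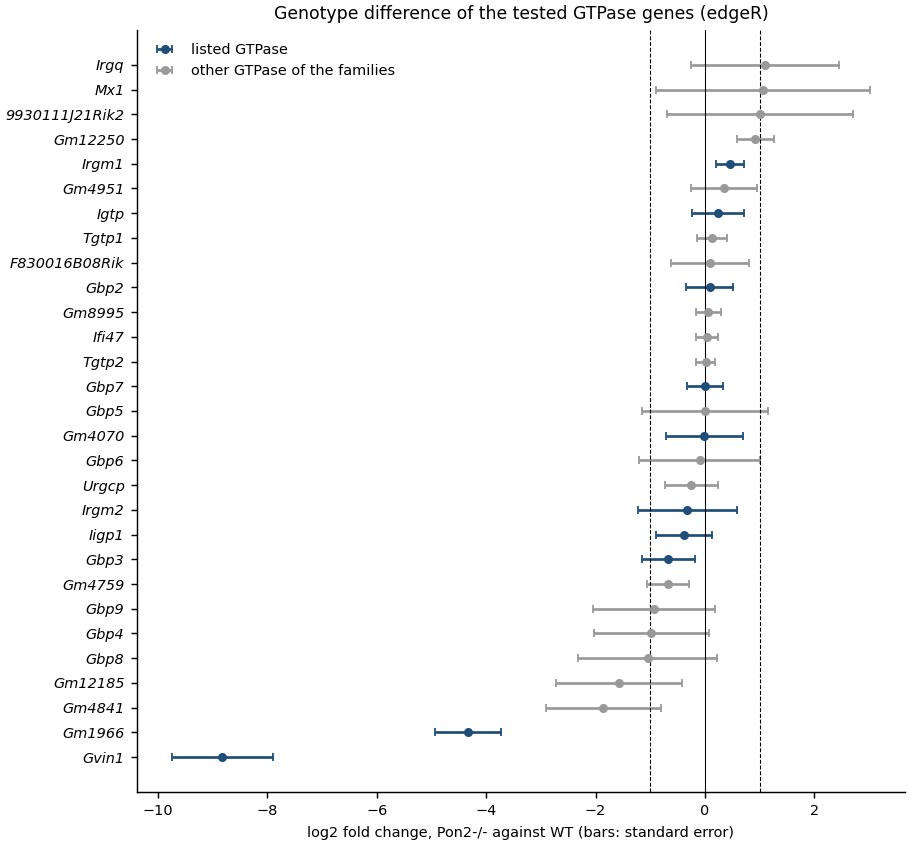
Log2 fold change of Pon2-/- against WT HSCs (x axis, with standard errors) for the 10 listed GTPases (blue) and the 19 other tested GTPases of the same families (grey), with dashed lines at a 2-fold change. Among the genes shown, Gm1966 at -4.33 and Gvin1 at -8.82 stand apart from the others, which lie between -1.86 and 1.1. Not shown are the copies 9130208D14Rik, at 7.03 and not on the family list, and Gm8979, which did not pass the filter on low counts.

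The interferon pathway upstream of these GTPases showed no call either. Of 29 ligands, receptors, kinases, factors and inhibitors, 22 were tested. With edgeR, 0 passed both thresholds and 2 had an unadjusted p below 0.05, beside 0.203% and 3.13% of all tested genes, and DESeq2 called 0. Among the ligands, Ifng, Ifnb1, Ifna2, Ifna4 and Ifne had 0 counts in all 12 samples, and Ifnk had 3 counts in WT and 12 in Pon2-/- HSCs. The receptors were expressed, for example Ifngr1 with 244 ± 31.3 CPM in WT HSCs and a log2 fold change of 0.16 (SE 0.2). Irf1, a factor that induces many GTPases, had a log2 fold change of 0.06 (SE 0.2).

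The smallest p of this list belonged to Irf9, a subunit of the factor that binds interferon response elements. It had 162 ± 34.2 CPM for WT and 258 ± 104 CPM for Pon2-/- HSCs (mean ± SD, 6 mice each), a log2 fold change of 0.67 (SE 0.24, unadjusted p = 0.0129, adjusted p = 1.0 with edgeR). Usp18, an inhibitor of the type I receptor, had a log2 fold change of 1.22 (SE 0.48, unadjusted p = 0.0247, adjusted p = 1.0 with edgeR), and Irf7 of 0.98 (SE 0.54, unadjusted p = 0.0907). None of the 3 passed after adjustment.

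Of 42 other interferon-stimulated genes, 41 were tested. With edgeR, 0 passed both thresholds and 5 had an unadjusted p below 0.05, of which 3 were higher and 2 lower in Pon2-/- HSCs, while DESeq2 called 1. The shares over all tested genes were 0.203%, 3.13% and 1.74%. That gene was Ifi204, a sensor of DNA, with 10 counts in 1 WT sample and 1308 counts over all 6 Pon2-/- samples (log2 fold change 6.57, SE 1.69, adjusted p = 0.476 with edgeR and 5.5e-05 with DESeq2). Its WT samples were at 0 to 0.774 CPM and its Pon2-/- samples at 5.53 to 21.3 CPM, without overlap. All 10 WT counts were in replicate 4, and without this sample edgeR called Ifi204 (adjusted p = 0.0218). Ifi204 passed the filter on low counts through its Pon2-/- counts alone, so that its p values are given as a description. The next were Ifitm1, which blocks viral entry (log2 fold change -0.5, SE 0.15, adjusted p = 0.76 with edgeR), and Mndal (0.83, SE 0.26, adjusted p = 0.948 with edgeR). The median log2 fold change of the list was 0.01.

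The autophagy conjugation genes that load IRGs and GBPs onto vacuoles were tested as well. Of 15 genes, 0 passed with edgeR, 0 had an unadjusted p below 0.05 and 0 were called by DESeq2. The shares over all tested genes were 0.203%, 3.13% and 1.74%. In a list of 15 genes, 0 is near these shares and does not show that the genes were unchanged. The smallest p belonged to Atg10, with 16.9 ± 13.9 CPM in WT HSCs and a log2 fold change of 1.86 (SE 1.03, unadjusted p = 0.0925, adjusted p = 1.0 with edgeR). Gabarapl2 (-0.36, SE 0.28) and Sqstm1 (0.26, SE 0.34) followed.

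No pair of the listed GTPases passed a test of co-variation from mouse to mouse after adjustment. Log2 CPM was centred within genotype, which removes the contrast that chose the genes, and pairs were correlated over 12 mice, leaving out those among the 3 copies. The 7 pairs with Gvin1 rest on the 6 WT mice alone, since it does not vary at 0 counts, and were not read as tests. Over the other 35 pairs, the median Pearson r was 0.021, and with the pairs of Gvin1 it was 0.044, beside -0.007 over all pairs of tested genes. In the 35 pairs r ranged from -0.55 to 0.56, with 19 positive pairs. The highest was that of Gm1966 and Igtp (r = 0.56, permutation p = 0.0773, and Spearman's rho = 0.69, permutation p = 0.0219), which became 0.47 without the 2 samples farthest from the median of Gm1966. The lowest was that of Gm4070 and Gbp2 (r = -0.55, permutation p = 0.0451, and rho = -0.49, permutation p = 0.0997), with r = -0.53 without 2 samples. After Benjamini-Hochberg adjustment over the 35 pairs these were at 0.788 for r and at 0.766 and 0.967 for rho, and 0 pairs passed. Igtp and Irgm2, whose gene models overlap, had r = 0.08 (permutation p = 0.811) and rho = -0.03 (permutation p = 0.917), with r = -0.03 without 2 samples.

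**Figure D5:**
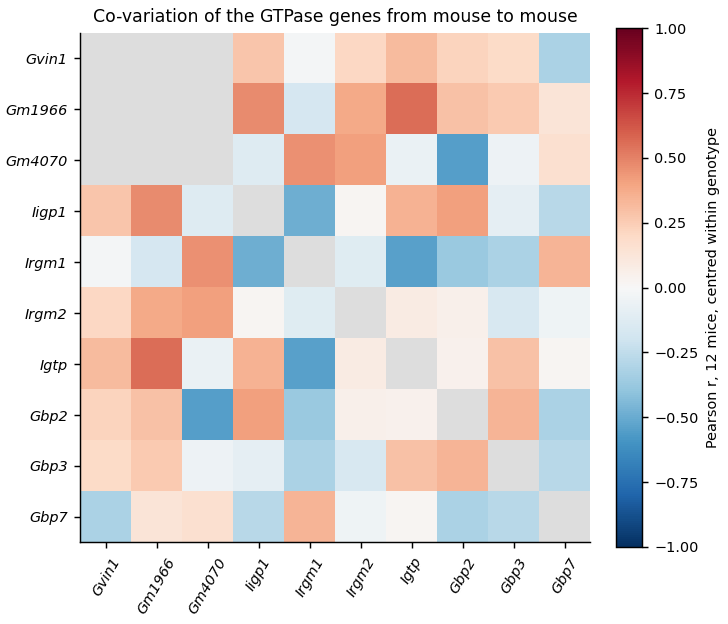
Pearson r of log2 CPM between the listed GTPases over 12 mice, centred within genotype (colour scale from -1 to 1, gene names on both axes, with grey for the diagonal and for pairs among the 3 copies). Values of r lie between -0.55 and 0.56, and those of Gvin1 rest on the 6 WT mice alone.

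By description alone, the tested genes most like Gvin1 over the 12 samples were Gm1966 (r = 0.971), mt-Nd3 (0.97), Htatip2 (0.966), Hbb-bt (0.954) and Gm26896 (0.95). They share the genotype difference, since mt-Nd3, Htatip2 and Gm26896 were at 0 in all Pon2-/- samples and Hbb-bt had 25.3 CPM for WT and 0.191 CPM in Pon2-/- HSCs. Of these 5 genes, Gm1966, Htatip2 and Hbb-bt are on chromosome 7. For Igtp, centred within genotype, they were mt-Nd2 (r = 0.908), Sesn2 (0.901), Coq3 (0.881), Tbc1d8b (0.873) and Ccdc112 (0.866), none of them a GTPase of the list.

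The promoters are shown for the IRGs and GBPs because these genes are known to be induced through interferon elements. RefSeq (GRCm38.p6) promoters, from 250 bases before to 50 bases after the start, were given for 7 of the 10 genes, all but Gvin1, Gm4070 and Iigp1, with 8 promoters in all, 2 of them of Gbp3. Each of the 7 genes has a promoter with the letters GAAANNGAA, the core of an interferon-stimulated response element (ISRE), on either strand, and the second promoter of Gbp3 (chr3:142560106-142560405) holds neither motif. The share was 8.56% over 32851 promoters, counted per promoter and not per gene. TTCNNNGAA, the gamma-activated sequence (GAS), is in 3 of them (Igtp, Irgm2 and Gbp7) and in 8.3% of all promoters, and the 3 hold both, compared with 1.07%. The ISRE matches start at positions -64 to -24 of the 6 IRGs and GBPs, with -1 the last base before the start. In Gm1966 a match lies at -162 of a RefSeq start outside the GENCODE gene model. A match is a description of letters and not a shown site.

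The 110 bases before each start are given 5′ to 3′ on the strand of the gene, with matches to either motif in capitals. They are chr11:48871421-48871530 for Irgm1 (minus strand), chr11:58199446-58199555 for Igtp, chr11:58214867-58214976 for Irgm2, chr3:142620553-142620662 for Gbp2, chr3:142559934-142560043 for Gbp3 and chr3:142530226-142530335 for Gbp7 (plus strand). The 2 matches of Irgm1 overlap each other, as do those of Gbp3.
Irgm1: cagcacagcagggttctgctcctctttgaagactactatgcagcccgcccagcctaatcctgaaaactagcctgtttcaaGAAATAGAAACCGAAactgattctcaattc
Igtp: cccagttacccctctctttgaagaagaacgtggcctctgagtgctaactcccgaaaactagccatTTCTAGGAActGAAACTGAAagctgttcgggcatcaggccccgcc
Irgm2: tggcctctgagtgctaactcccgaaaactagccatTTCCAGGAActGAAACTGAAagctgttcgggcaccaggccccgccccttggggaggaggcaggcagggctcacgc
Gbp2: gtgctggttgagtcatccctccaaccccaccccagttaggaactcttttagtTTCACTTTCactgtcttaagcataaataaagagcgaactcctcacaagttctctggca
Gbp3: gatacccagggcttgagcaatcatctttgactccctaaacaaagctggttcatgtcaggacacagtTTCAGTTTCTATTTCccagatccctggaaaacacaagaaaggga
Gbp7: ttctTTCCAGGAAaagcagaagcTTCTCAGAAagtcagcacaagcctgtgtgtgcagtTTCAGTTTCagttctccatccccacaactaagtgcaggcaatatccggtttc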

How the data were processed

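Smart-seq2 libraries of sorted HSCs of 6 WT and 6 Pon2-/- mice were analysed. The authors removed adapters (Trimmomatic 0.36), aligned reads with STAR 2.5.3a to GRCm38.p5 and deposited whole-number counts per gene of GENCODE M12, of uniquely mapped reads and without normalization (the submitters' processing notes also name FastQC 0.11.5, DESeq2 1.18.1 and edgeR). The read length and how the 8 wells of a mouse were joined are not given in the sources used here. Samples were grouped by their labels.

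Gene names, positions and transcripts were taken from GENCODE M21 and promoters from RefSeq GRCm38.p6. In R 4.3.3, edgeR 4.0.16 (TMM, filterByExpr, quasi-likelihood F-test, with a single term for genotype) compared the genotypes over 11848 genes with Benjamini-Hochberg adjustment. The study's DESeq2 was run as an alternative (version 1.42.0). A call needed an FDR below 0.05 together with a log2 fold change above 1 in size. Log2 CPM used a prior count of 2. Folds against 0 used a limit of 3 counts over the group, and ratios of few counts have an interval at 95%, both for counting error alone. Copies were aligned with MAFFT 7.526. Correlations used 100000 permutations within genotype. The procedure was tested on simulated data.

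The members and the gene lists were chosen with earlier results of these data known. Named were all 10 members, each tested gene of the family list, the called genes and the 3 smallest p of the other lists and of the neighbours, and the 5 genes most like Gvin1 and Igtp. Trim5, Trim30a, Mrpl17, the receptors, Irf1 and the copies that did not pass the filter were named after their values were seen. 1 gene of the pathway list is not reported here. Alternatives were size factors of DESeq2, a filter of only 1 read, DESeq2 itself, robust estimation, a replicate block, summed copies, a prior count of 0.5 and leaving out each sample.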

Additional observations from a re-analysis of the deposited data

Results flagged for a closer look

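Within each genotype, a GTPase gene was examined for a sample whose gap to the nearest other sample, divided by the range of the group, exceeded the critical value of 0.625 for 6 samples. Of 57 groups examined 7 exceeded it. Chance alone does so in about 1 of 20 groups if values are normally distributed. The CPM here were not shown to be so, and nothing is read from the number of groups. Among the listed genes, Iigp1 was highest in Pon2-/- replicate 1 with 132 CPM, where the other Pon2-/- samples had 45.9 to 60.7 CPM. Irgm2 was lowest in Pon2-/- replicate 2 with 0.0428 CPM, or 1 count, where the others had 27.3 to 78.5 CPM. Among the other GTPases, Gbp6 was at 0.0 CPM in Pon2-/- replicate 3 (others 5.19 to 19.2 CPM), and Irgq was at 0.0 CPM in Pon2-/- replicate 1 (others 16.3 to 32.1 CPM). Gm12185 was lowest in Pon2-/- replicate 2 with 0.0856 CPM (others 4.87 to 19.7 CPM). Mx1 was highest in WT replicate 6 with 19.4 CPM (others 0.0 to 0.0421 CPM) and lowest in Pon2-/- replicate 6 with 0.0 CPM (others 3.13 to 17.1 CPM).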

How the results depend on the processing

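Of the listed genes, 2 were called, a number that was 1 with no filter beyond 1 read, where Gvin1 lost its call at a log2 fold change of -8.81 (SE 1.82), and 0 with a replicate block, where Gvin1 was at -8.74 and Gm1966 at -4.34. Without 1 sample it stayed at 2. With the 3 copies summed, Gm4070 was part of a called feature at -3.0. With the 8 compared copies summed, a choice made after the data had been seen, the feature was at -0.28 and not called. The log2 fold changes of the IRGs and GBPs moved by less than their SE under every alternative run. Leaving out 1 sample gave ranges of -9.06 to -8.48 for Gvin1, -4.52 to -4.19 for Gm1966, -0.43 to 0.21 for Gm4070, -0.73 to 0.01 for Iigp1 and 0.28 to 0.62 for Irgm1, and all 7 IRGs and GBPs stayed uncalled. The 24 genes called in all became 8 with no filter, 304 with DESeq2, 5 with the replicate block and 20 to 28 without 1 sample. Neighbours called became 1 with no filter, 10 with DESeq2 (which also tests genes below the filter) and 1 with the block, where 9130208D14Rik lost its call at 7.07 and 7.11 (adjusted p = 0.281 and 0.276 with edgeR), other family GTPases 1 with DESeq2, and interferon-stimulated genes 1 with DESeq2 and 0 to 1 without 1 sample (Ifi204 in both, with edgeR only without WT replicate 4). The median r of the pairs was 0.021 to 0.087 without 1 sample and 0.021 without the pairs of Gvin1, a choice made after the data had been seen. The causes of these changes were not tested. Replicate numbers did not pair the mice: deviations of same-numbered samples correlated at 0.001 to 0.043, and 1 of 6 pairs was the best match. The coefficient of biological variation was 99.2%, so that genes not called are not shown to be unchanged.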
